A study of Mus musculus with 26 samples.

Results

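Endothelial cells line blood vessels, and their genes were followed here through 10 members in mouse samples measured on 26 exon arrays: Pecam1, Cdh5, Tek, Tie1, Flt1, Kdr, Sox7, Sox17, Sox18 and Emcn. All 10 belonged to the 18341 genes tested, and 230 of the 631748 probe sets on the array carried one of these symbols alone, between 6 (Sox18) and 43 (Flt1) for each gene. The level of a gene is the median of the brighter 50% of its probe sets, in log2 units of the deposited RMA values, so a difference of 1 is a 2-fold change. Labels name ES (embryonic stem) cells and EB, read here as embryoid bodies, which are clumps of differentiating ES cells, and call each sample an embryonic body cell. The single difference between labels is the inbred mouse strain, 129S2/SvPas for 14 arrays (titled ES1 to ES14) and C57BL/6 for 12 (ES15 to ES26). No label gives a day, a treatment, an age, a sort or a batch, and the tested groups are these strain labels. No source says whether the arrays hold independent cultures, so a p-value reflects only array-to-array spread, part or all of which can be technical.

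Embryonic endothelium arises from mesoderm that expresses Kdr, the main VEGF receptor, and this mesoderm also gives the first blood cells. Flt1 binds the same ligand with high affinity and limits how much of it reaches Kdr. Tek, also called Tie2, is the receptor for angiopoietins, and Tie1 is its orphan partner. Cdh5 encodes VE-cadherin, the adhesion molecule of endothelial junctions, Pecam1 encodes CD31, which is also found on leukocytes, platelets and mouse ES cells, and Emcn encodes endomucin, a sialomucin of the endothelial surface. Sox7, Sox17 and Sox18 are the SoxF transcription factors, and Sox7 and Sox17 are known in endoderm as well.

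The arrays are described in runs of titles. These runs were set with earlier results of the same data known and are not in the labels, and the order of titles is not stated to be an order in time. ES1 to ES12 held high levels of a list of 11 measured myeloid and leukocyte genes (list mean 11.00 to 11.98, against 5.47 to 7.48 in ES13 to ES20 and 5.48 to 6.10 in ES21 to ES26), a pattern of blood cells that the label of an embryonic body cell does not name. ES21 to ES24 had the highest mean of 8 naive pluripotency genes (10.51 to 10.91, against 5.49 to 5.93 in ES1 to ES12, 7.57 to 8.36 in ES13 to ES20 and 7.05 and 7.86 in ES25 and ES26). Tbx3 of this list was highest in ES13 (10.28), beside 8.34 to 8.90 in ES21 to ES24. Klf4 was 8.96 to 9.40 in ES21 to ES24 and overlapped ES19 and ES20 (9.19 and 9.29). The other members lay higher in ES21 to ES24 than in any other array. ES13 and ES14 carry the 129S2/SvPas label that ES1 to ES12 carry, but with myeloid means of 5.57 and 5.47 they stood apart from those arrays, so results on the label are given with and without them.

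The RefSeq promoter table (GRCm38.p6) held 5 of the 10 genes. The 250 bases before the annotated start are shown for Kdr and Flt1, the pair of VEGF receptors, and for Tie1 and Emcn, which were both highest in ES17, because ETS factors such as Etv2, Fli1 and Erg are known regulators of endothelial promoters. Capitals mark the ETS-type letters AGGAAG on either strand (CTTCCT when read on the other strand). The windows are chr5:75978456-75978705 (minus strand) for Kdr, chr5:147726012-147726261 (minus strand) for Flt1, chr4:118489850-118490099 (minus strand) for Tie1 and chr3:137340828-137341077 (plus strand) for Emcn, each written 5′ to 3′ along the gene.
Kdr: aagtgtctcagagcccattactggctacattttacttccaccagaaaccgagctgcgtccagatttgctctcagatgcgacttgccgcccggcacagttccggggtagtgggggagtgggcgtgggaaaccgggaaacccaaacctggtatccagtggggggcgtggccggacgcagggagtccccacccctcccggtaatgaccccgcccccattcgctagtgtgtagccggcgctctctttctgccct
Flt1: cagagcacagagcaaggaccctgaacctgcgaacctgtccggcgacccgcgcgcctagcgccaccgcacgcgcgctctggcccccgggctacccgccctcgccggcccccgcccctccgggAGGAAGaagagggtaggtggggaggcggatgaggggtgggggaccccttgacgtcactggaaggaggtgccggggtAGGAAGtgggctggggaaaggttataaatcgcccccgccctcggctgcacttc
Tie1: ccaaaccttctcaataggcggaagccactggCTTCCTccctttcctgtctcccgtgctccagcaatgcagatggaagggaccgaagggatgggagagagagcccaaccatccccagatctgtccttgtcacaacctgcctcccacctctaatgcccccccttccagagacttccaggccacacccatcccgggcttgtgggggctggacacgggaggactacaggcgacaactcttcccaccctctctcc
Emcn: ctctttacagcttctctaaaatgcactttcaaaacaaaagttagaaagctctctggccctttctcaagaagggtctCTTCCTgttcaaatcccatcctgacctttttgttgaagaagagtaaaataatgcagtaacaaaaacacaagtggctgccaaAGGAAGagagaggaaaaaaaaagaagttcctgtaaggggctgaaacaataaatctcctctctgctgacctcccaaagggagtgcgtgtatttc
The letters occurred 2 times in the Flt1 window, 2 times in that of Emcn and 1 time in that of Tie1, and were not found in the Kdr and Tek windows. Of 32851 promoter windows of this length, 29.5% held them. The SOX-type letters ACAAT were found 2 times in the Tek window and 1 time in that of Emcn (27.7% of all windows), and the E-box CANNTG 2 times in the Tek window and 1 time each in those of Kdr, Tie1 and Emcn (66.2%). The GATA-type letters AGATAA were in none of the 5 windows (9.99% of all windows). The windows also differed in base composition, with 70.4% G or C for Flt1, 61.6% for Kdr, 60.4% for Tie1 and 40.8% for Emcn. A match is a description of letters and not a binding site.

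Most endothelial genes had their highest array in ES13 to ES20. For 9 of the 10 genes the highest of all 26 arrays lay in this run, against 23.3% of all tested genes, and Pecam1 was the exception. In Cdh5, Kdr and Sox7 every array of ES13 to ES20 lay above each of the other 18 arrays (1.67% of all tested genes), and Tie1 and Emcn joined them when ES13 and ES14 were set aside, giving 5 of 10 (3.36% of all tested genes). Because the run was chosen with results known, these shares describe the arrays and are no test. In whole samples, more endothelial cells and more RNA per cell cannot be told apart.

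**Figure D1:**
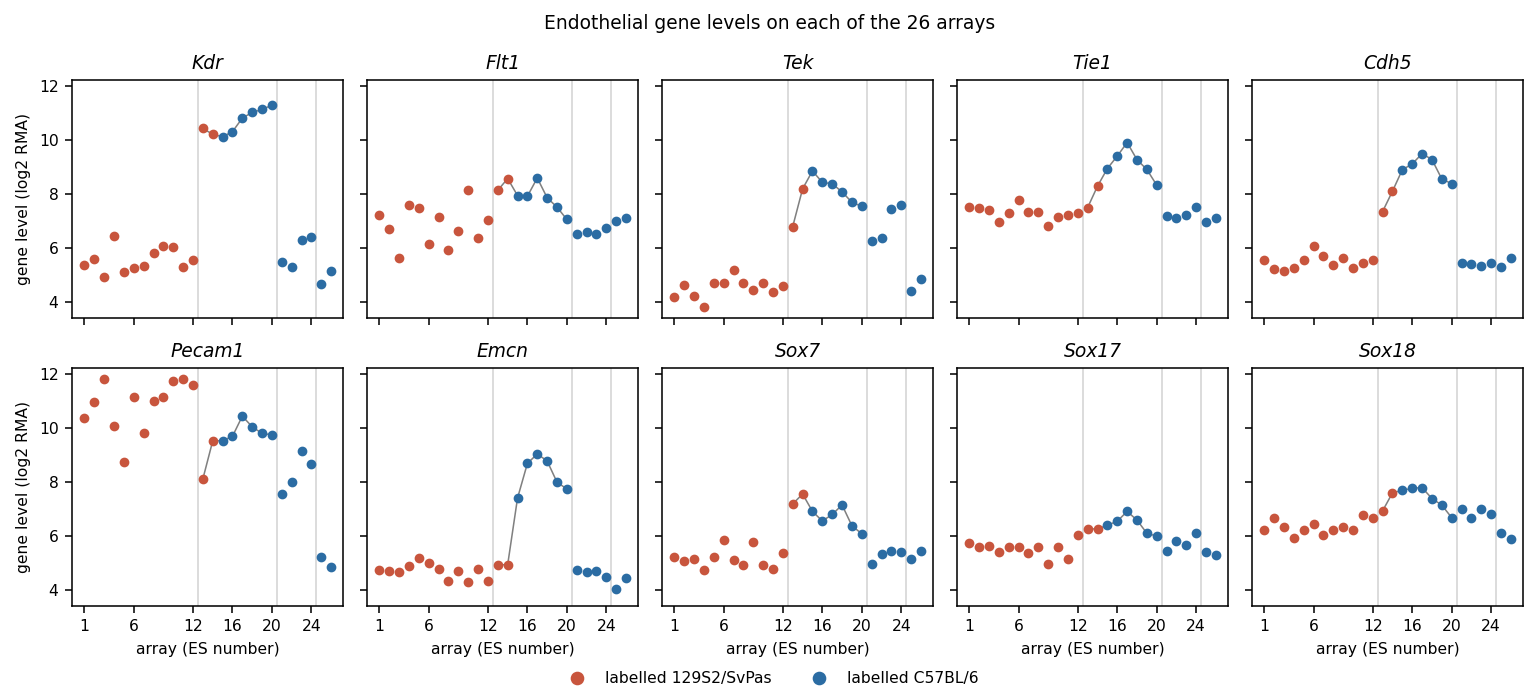
Level of each endothelial gene (log2 RMA, vertical axis) on each of the 26 arrays (horizontal axis, by number in the title). Red points are arrays labelled 129S2/SvPas and blue points arrays labelled C57BL/6, vertical lines separate the runs ES1 to ES12, ES13 to ES20, ES21 to ES24 and ES25 to ES26, and the grey line joins ES13 to ES20. Kdr is above 10 in each of ES13 to ES20 and below 6.5 elsewhere. The gene level of Emcn first leaves its low range in ES15, and Pecam1 is highest in ES1 to ES12.

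Kdr, the VEGF receptor that marks vascular mesoderm, was 10.44 in ES13, 10.22 in ES14, 10.13 in ES15, 10.32 in ES16, 10.82 in ES17, 11.03 in ES18, 11.14 in ES19 and 11.30 in ES20. It ranged from 4.92 to 6.44 (median 5.47) in ES1 to ES12, was 5.47, 5.28, 6.31 and 6.40 in ES21 to ES24, and 4.66 and 5.14 in ES25 and ES26. All 8 arrays of the run stood at least 3.69 above the highest of the other 18, and the level was already high in ES13. Kdr differed from the other members in that its highest value was in ES20, the last of the run.

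Flt1, which holds VEGF away from Kdr, was 8.14 in ES13, 8.58 in ES14, 7.95 in ES15, 7.92 in ES16, 8.60 in ES17, 7.86 in ES18, 7.52 in ES19 and 7.06 in ES20. ES1 to ES12 ranged from 5.65 to 8.16 with a median of 6.87, ES21 to ES24 were 6.53, 6.59, 6.50 and 6.75, and ES25 and ES26 were 7.01 and 7.10. Only ES14 and ES17 exceeded every array outside the run, and ES20 lay below ES26. The separation of Flt1 was therefore partial: the run lay above ES21 to ES24 but overlapped ES1 to ES12.

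Tek, the angiopoietin receptor, was 6.80 in ES13, 8.19 in ES14, 8.86 in ES15, 8.43 in ES16, 8.39 in ES17, 8.08 in ES18, 7.70 in ES19 and 7.54 in ES20. It ranged from 3.81 to 5.20 (median 4.62) in ES1 to ES12, was 6.25, 6.37, 7.44 and 7.59 in ES21 to ES24, and 4.40 and 4.85 in ES25 and ES26. Tek was thus at an intermediate level in the naive pluripotency arrays, where the lowest array lay 1.40 above the higher of ES25 and ES26. ES20 was below ES24, so the 2 runs overlapped.

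Tie1, the partner of Tek, was 7.50 in ES13, 8.30 in ES14, 8.95 in ES15, 9.41 in ES16, 9.91 in ES17, 9.28 in ES18, 8.91 in ES19 and 8.33 in ES20. ES1 to ES12 ranged from 6.81 to 7.78 with a median of 7.33, ES21 to ES24 were 7.17, 7.12, 7.22 and 7.53, and ES25 and ES26 were 6.95 and 7.11. ES13 lay among the arrays outside the run and the other 7 above all of them. Unlike Tek, Tie1 in ES21 to ES24 overlapped ES1 to ES12.

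Cdh5, the junctional cadherin, was 7.35 in ES13, 8.11 in ES14, 8.90 in ES15, 9.12 in ES16, 9.50 in ES17, 9.28 in ES18, 8.56 in ES19 and 8.39 in ES20. The other 18 arrays formed a flat floor, from 5.14 to 6.06 (median 5.50) in ES1 to ES12, 5.45, 5.42, 5.32 and 5.44 in ES21 to ES24, and 5.30 and 5.62 in ES25 and ES26. ES13, the lowest of the run, was 1.29 above the highest of them.

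Emcn, the surface sialomucin, was 4.94 in ES13 and 4.94 in ES14, then 7.41 in ES15, 8.70 in ES16, 9.05 in ES17, 8.79 in ES18, 8.00 in ES19 and 7.75 in ES20. ES1 to ES12 ranged from 4.30 to 5.17 with a median of 4.74, ES21 to ES24 were 4.75, 4.65, 4.71 and 4.48, and ES25 and ES26 were 4.04 and 4.44. Kdr, Cdh5 and Sox7 in ES13 and ES14 lay above all arrays outside the run, whereas Emcn there lay within the range of ES1 to ES12, and the step from ES14 to ES15 was 2.47. The strain label also changes between ES14 and ES15, so the step and the label cannot be told apart. The step is that of the gene level, and probe sets of Emcn differed in it. A brighter probe set was 2.09 in ES13, 5.72 in ES14 and 7.13 in ES15, beside at most 4.22 outside the run. Another brighter one was 2.61, 3.43 and 7.42 in these arrays.

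Pecam1, the adhesion molecule CD31, was 8.12 in ES13, 9.53 in ES14, 9.54 in ES15, 9.70 in ES16, 10.45 in ES17, 10.05 in ES18, 9.81 in ES19 and 9.76 in ES20. It was higher in most of ES1 to ES12, with a range of 8.76 to 11.82 and a median of 11.09, and was 7.57, 7.99, 9.14 and 8.67 in ES21 to ES24. ES25 and ES26, at 5.23 and 4.84, were the lowest arrays. Every array of ES1 to ES12 lay above both of them, which held for no other member and for 15.4% of all tested genes, and the gap for Pecam1 was 3.53.

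The SoxF factors were also highest in ES13 to ES20, with a narrower gap to the other arrays on the gene level than Kdr or Cdh5. Sox7 was 7.19 in ES13, 7.56 in ES14, 6.92 in ES15, 6.56 in ES16, 6.80 in ES17, 7.15 in ES18, 6.38 in ES19 and 6.09 in ES20, against 4.72 to 5.85 (median 5.13) in ES1 to ES12, 4.98, 5.35, 5.46 and 5.43 in ES21 to ES24, and 5.16 and 5.43 in ES25 and ES26. Its highest arrays were therefore the first of the run. Sox17 was 6.28, 6.26, 6.40, 6.55, 6.92, 6.59, 6.10 and 6.00 in ES13 to ES20 in title order, against 4.98 to 6.04 (median 5.58) in ES1 to ES12, 5.43, 5.81, 5.66 and 6.11 in ES21 to ES24, and 5.43 and 5.29 in ES25 and ES26. Sox18 was 6.94, 7.60, 7.70, 7.78, 7.80, 7.39, 7.15 and 6.68, against 5.94 to 6.78 (median 6.28) in ES1 to ES12, 7.01, 6.68, 6.99 and 6.82 in ES21 to ES24, and 6.11 and 5.89 in ES25 and ES26. For both Sox17 and Sox18, 6 of the 8 arrays of the run stood above all others, the exceptions being ES19 and ES20 for Sox17 and ES13 and ES20 for Sox18.

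Within the run, ES17 was the highest array for 7 of the 10 genes, namely Pecam1, Cdh5, Tie1, Flt1, Sox17, Sox18 and Emcn, whereas it was the highest for 9.75% of all tested genes. Tek was highest in ES15, Sox7 in ES14 and Kdr in ES20. ES17 exceeded the next array by 0.02 (Flt1 and Sox18) to 0.50 (Tie1), which for each of these genes is less than the range within ES1 to ES12. Set against the narrower range within ES21 to ES24, the gap was larger for Cdh5 (0.22 against 0.13) and Tie1 (0.50 against 0.41). For Sox18 the array of the peak also depended on the probe set. Its 3 brighter probe sets were highest within the run in ES14 (7.60), ES15 (9.35) and ES17 (7.80). The distance from ES17 to ES20 was wider, at 1.58 for Tie1, 1.30 for Emcn, 1.12 for Cdh5 and 1.11 for Sox18, and in these 4 genes was larger than the range within ES1 to ES12 (0.97, 0.87, 0.92 and 0.84). ES20 was below ES17 in 9 of 10 members and in 52.9% of all tested genes. For the 7 genes highest in ES17 this follows from their peak, so the count adds nothing for them. Of the remaining members, Tek and Sox7 were lower in ES20 and Kdr was higher.

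ES21 to ES24 were separated from ES25 and ES26 in most members. Every array of ES21 to ES24 lay above ES25 and ES26 in 7 of 10 genes (16.1% of all tested genes). The difference between the medians of these runs was 3.29 for Pecam1, 2.28 for Tek, 0.99 for Kdr and 0.90 for Sox18. For Emcn, Sox17 and Tie1 the runs were separated by 0.04 or less. Flt1 went the other way, and Cdh5 and Sox7 overlapped. Every array of ES13 to ES20 lay above every array of ES21 to ES24 in Cdh5, Flt1, Kdr, Sox7 and Emcn (5.41% of all tested genes), while Pecam1, Tek, Tie1, Sox17 and Sox18 overlapped there.

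The strain label is the comparison that the labels provide, and it sets both ES13 and ES14 and the myeloid-rich arrays against ES15 to ES26. With limma on all 26 arrays, 5 of the 10 genes were lower in arrays labelled 129S2/SvPas, where 22.1% of all tested genes were, and Pecam1 was higher, as were 21.1% of all tested genes. The median difference of the members was -0.65, beside 0.00 over all tested genes. Tek was 4.94 ± 1.16 (SD, n = 14) under the 129S2/SvPas label and 7.16 ± 1.41 (SD, n = 12) under C57BL/6, which differed by -2.21 ± 0.48 (SE; limma adjusted p = 0.000474). Emcn differed by -1.66 ± 0.51 (adjusted p = 0.0105), Cdh5 by -1.39 ± 0.53 (adjusted p = 0.034), Tie1 by -0.77 ± 0.29 (adjusted p = 0.0365) and Sox18 by -0.53 ± 0.20 (adjusted p = 0.0332). Pecam1 was 10.57 ± 1.17 (SD, n = 14) and 8.56 ± 1.85 (SD, n = 12), which differed by 2.01 ± 0.57 (limma adjusted p = 0.00508). Kdr (-1.92 ± 0.85, adjusted p = 0.0711), Sox17 (-0.40 ± 0.17, adjusted p = 0.061), Sox7 (-0.48 ± 0.31, adjusted p = 0.214) and Flt1 (-0.22 ± 0.30, adjusted p = 0.586) did not pass the threshold of 0.05.

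**Figure D2:**
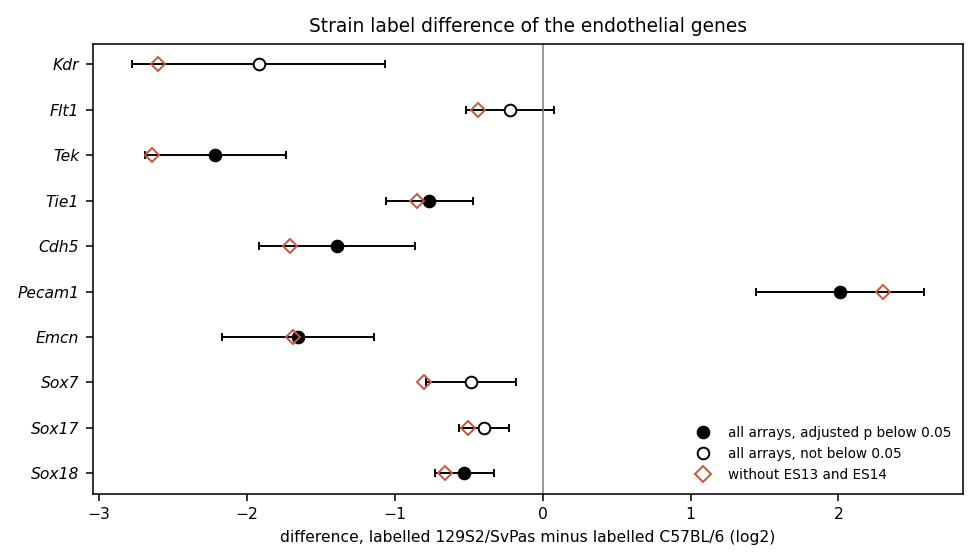
Difference of each endothelial gene between arrays labelled 129S2/SvPas and C57BL/6 (horizontal axis, log2 units, with the standard error from limma as bars). Filled circles passed the threshold with all 26 arrays, open circles did not, and red diamonds give the value without ES13 and ES14. Pecam1 is the single gene to the right of 0. Its diamond and those of the other 9 genes lie further from 0 than their circles.

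Several of the calls changed with the arrays that stood under each label. Without ES13 and ES14, 8 genes were lower, as Kdr (-2.60, adjusted p = 0.00541), Sox7 (-0.80, adjusted p = 0.00489) and Sox17 (-0.50, adjusted p = 0.0119) passed too, and Pecam1 stayed higher (2.30, adjusted p = 0.00106). When ES1 to ES12 were left out, so that only ES13 and ES14 carried the 129S2/SvPas label, none of the 10 passed in limma, 1 of all tested genes passed and 1814 had an unadjusted p below 0.05, with Cdh5, Tek and Sox18 then above 0 at 0.54, 0.34 and 0.27, as were Kdr at 2.16, Sox7 at 1.40, Flt1 at 1.08 and Sox17 at 0.24. Centring each array on its median left 3 lower genes (Tek, Emcn and Cdh5), moved the median difference of all genes to 0.13 and changed the calls over all genes from 4055 lower and 3876 higher to 2954 lower and 5738 higher. The call of Cdh5 was lost without any 1 of ES3 and ES15 to ES20 (adjusted p up to 0.0685), that of Tie1 without any 1 of ES4, ES9, ES10 and ES15 to ES20 (up to 0.0748) and that of Sox18 without any 1 of ES4, ES7 and ES15 to ES18 (up to 0.0659). Kdr passed without any 1 of ES13, ES14, ES21, ES22, ES25 and ES26 (down to 0.0249), and Sox17 without any 1 of ES12, ES13, ES14, ES21, ES23, ES25 and ES26 (down to 0.0262). Tek, Emcn and Pecam1 passed whichever array was left out.

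The probe sets of a gene target different stretches of its transcripts, and they show how widely a difference was shared. Each probe set is summarised here by the median over a run. All 35 probe sets of Kdr were more than 1 log2 unit higher in ES15 to ES20 than in ES25 and ES26, with a median of 6.08, as were 29 of 31 for Tek (3.93), 27 of 34 for Tie1 (3.31), 19 of 22 for Pecam1 (4.05), 13 of 18 for Emcn (3.77) and 11 of 14 for Cdh5 (4.83). For Flt1 it was 13 of 43 (0.78), for Sox17 7 of 18 (0.71), for Sox18 4 of 6 (1.34) and for Sox7 4 of 9 (0.16). No probe set of any member was more than 1 log2 unit lower. The counts depend on the arrays compared. Against ES21 to ES24 instead, those more than 1 log2 unit higher were 35 of 35 for Kdr (5.32), 24 of 31 for Tek (1.36), 26 of 34 for Tie1 (3.06) and 16 of 22 for Pecam1 (1.30). They were 13 of 18 for Emcn (3.54), 11 of 14 for Cdh5 (4.48), 28 of 43 for Flt1 (1.35), 6 of 18 for Sox17 (0.48), 2 of 6 for Sox18 (0.77) and 4 of 9 for Sox7 (0.54).

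Several genes held bright probe sets with little difference. The differences here are again ES15 to ES20 against ES25 and ES26. In Cdh5, 4 of the 7 brighter probe sets were more than 1 log2 unit higher in ES15 to ES20, but all 7 dimmer ones were. In Tie1 the median difference was 2.22 among the brighter 17 and 4.44 among the dimmer 17. The gene level rests on the brighter probe sets. When the gene level was the median of every probe set instead, the highest array of the run exceeded the highest of the other 18 by 4.66 in Cdh5 and 3.35 in Tie1, compared with 3.44 and 2.13 on the main gene level. In Sox7, 2 of the 5 brighter probe sets passed 1 log2 unit and 3 did not. In Sox17, 3 of the 9 brighter and 4 of the 9 dimmer ones passed it, and the largest difference was 3.96.

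The intermediate levels of Pecam1 and Tek in ES21 to ES24 were carried by most of their probe sets. Compared with ES25 and ES26, 18 of 22 probe sets of Pecam1 and 28 of 31 of Tek were more than 1 log2 unit higher, with medians of 2.47 and 2.47. For Kdr this was 14 of 35 (0.64). In ES1 to ES12, 20 of 22 probe sets of Pecam1 were higher (5.34), while 1 of 31 for Tek, 10 of 35 for Kdr and none of the 14 for Cdh5 was.

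**Figure D3:**
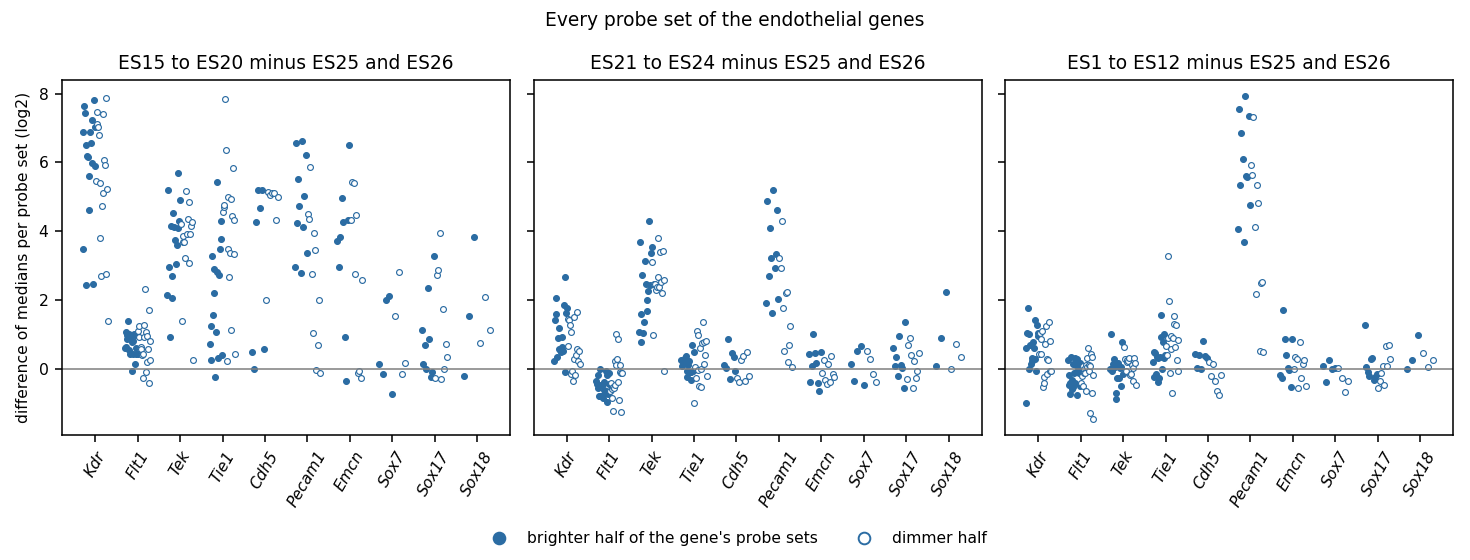
Each point is 1 probe set of the gene on the horizontal axis, and the vertical axis gives its median over ES15 to ES20, ES21 to ES24 or ES1 to ES12 minus its median over ES25 and ES26 (log2 units). Filled points are the brighter 50% of a gene's probe sets, which make up the gene level, and open points the dimmer ones. In the left panel all 35 Kdr points lie above 1, Cdh5 splits into high points and 3 points near 0, and in the right panel Pecam1 alone is high throughout most of its points.

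Genes that work with these receptors were taken from a list of 36 signalling partners, of which 33 were tested. Arrays labelled 129S2/SvPas were lower for 20 and higher for 4 of them (22.1% and 21.1% of all tested genes), with a median difference of -0.75, and 15 had their highest array in ES13 to ES20 (23.3% of all tested genes). Nrp1, the VEGF co-receptor neuropilin, was 9.92 in ES13 and 11.36 in ES19, beside 6.85 to 8.88 in ES1 to ES12 (difference -1.82 ± 0.48, SE; limma adjusted p = 0.00287). Angpt1, the activating ligand of Tek, was 5.53 in ES13 and 8.91 in ES20 and did not pass (-0.94 ± 0.42, adjusted p = 0.0729). Hey2, a Notch target of arterial cells, was highest in ES15 at 8.13 and did not pass (-0.31, adjusted p = 0.465). Apln, the apelin ligand, was 8.43 in ES13, 5.21 in ES17 and highest in ES26 at 9.11, and did not pass (-0.75, adjusted p = 0.14). The chemokine Cxcl12 was lower (-2.54 ± 0.30, adjusted p = 2.77e-07) and its receptor Cxcr4 higher (3.81 ± 0.37, adjusted p = 2.95e-08).

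Among these partners, ES15 to ES20 lay above all of ES1 to ES12 and ES21 to ES26 for 5 of 33, against 3.36% of all tested genes. They were the lymphatic and vascular growth factor Vegfc, Nrp1, the Notch ligand Dll4, the Notch target Hey1 and the inhibitory Smad6, and apart from Nrp1 they are named after their values were seen. Dll4 was 6.30 in ES13, 6.05 in ES14, 7.18 in ES15, 7.81 in ES16, 8.02 in ES17, 7.84 in ES18, 7.34 in ES19 and 6.89 in ES20. Like Emcn, it lay within the range of ES1 to ES12 in ES13 and ES14 and was highest in ES17.

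Of 22 transcription factors of the endothelium and of blood, all tested, 7 were higher and 3 lower in arrays labelled 129S2/SvPas (21.1% and 22.1% of all tested genes), 12 passed in neither direction, the median difference was 0.04, and none had ES15 to ES20 above all other arrays. Lmo2, a bridging factor of blood and vessel precursors, was 10.49 in ES13 and 10.77 in ES15, was 8.95 in ES20, and was at least 10.37 in ES1 to ES12 (2.73 ± 0.54, SE; limma adjusted p = 0.000177). The ETS factors Fli1 (3.68 ± 0.59, adjusted p = 1.36e-05) and Erg (2.45 ± 0.46, adjusted p = 0.000102) and the bHLH factor Lyl1 (2.48 ± 0.43, adjusted p = 4.4e-05) were also higher there. Erg was 6.09 in ES13 and between 7.64 and 8.19 in the 7 arrays that follow. Mef2c, known from muscle and vessels, was 6.49 in ES13 and 10.01 in ES17 (-0.38, adjusted p = 0.461), and Ets1 was 8.82 in ES13 and 10.28 in ES18 (-0.35, adjusted p = 0.365). Etv2, the ETS factor that starts the endothelial programme, is named after its values were seen: it was highest of all arrays in ES13 at 7.68 and was 6.75, 6.74, 6.34, 6.24, 5.61, 5.68 and 5.58 in ES14 to ES20.

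A further list of 40 endothelial genes had 38 tested members, of which 15 were lower and 6 higher in arrays labelled 129S2/SvPas (22.1% and 21.1% of all tested genes), with a median difference of -0.32. ES15 to ES20 lay above all arrays outside ES13 to ES20 for 8 of 38 (3.36% of all tested genes), named after their values were seen: the junction gene Esam, the fenestral diaphragm gene Plvap, Ecscr, the nitric oxide synthase Nos3, Ramp2, the adhesion receptors Adgrf5 and Adgrl4, and Tspan18. The 6 genes of widest range were mixed. Tspan18 was 6.53 in ES13 and 9.89 in ES19 (-1.84 ± 0.64, SE; limma adjusted p = 0.0219), and Mmrn1, a multimerin of platelets and endothelium, was 3.50 in ES13 and 7.97 in ES17 (-0.94, adjusted p = 0.148). Cd93, which myeloid cells also express, stood at 4.25 in ES13 and 9.28 in ES17, beside 10.40 or more in ES1 to ES12 (4.08 ± 0.87, adjusted p = 0.000407). Calcrl was 6.82 in ES13 and 8.91 in ES17 (0.46, adjusted p = 0.363). Cav1 and Selp were highest in ES26, outside the run, and both were lower under the 129S2/SvPas label (-2.18 ± 0.48, adjusted p = 0.000589, and -1.26 ± 0.40, adjusted p = 0.0119).

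Markers of other cell types also differed between the runs, and their part in the levels of the endothelial genes was not tested. The mean of 11 myeloid and leukocyte genes, highest in ES1 to ES12, was 5.57 in ES13, 7.25 in ES17 and 7.48 in ES20. Laptm5 of this list was 6.34 in ES13 and 11.11 in ES17 and Ptprc 4.13 and 7.48, while Ngp was 5.13 and 5.31 and S100a8 6.54 and 6.16. The mean of 7 embryonic erythroid genes was 7.05 in ES13, 9.42 in ES14, 11.53 in ES16 and 9.29 in ES20, beside 5.33 to 6.12 in the other arrays, and all 7 had their highest array in the run. For 6 megakaryocyte and platelet genes, a lineage that expresses Pecam1, it was 6.27 in ES13, 10.06 in ES17 and 9.50 in ES20, beside 6.96 to 8.30 in ES1 to ES12 and 5.88 to 6.49 in ES21 to ES26. For 8 primitive streak and early mesoderm genes it was 8.92 in ES13 and 7.03 in ES20, beside 5.68 to 6.40 in ES1 to ES12 and 6.47 to 7.12 in ES21 to ES26. Pdgfra and Tbx6 of this list went the other way, at 8.83 and 6.59 in ES13 and 10.05 and 6.78 in ES20. For 8 mural and fibroblast genes the mean was 8.39 in ES13 and 10.52 in ES20, beside 6.20 to 6.65 in ES1 to ES12 and 7.85 to 9.61 in ES21 to ES26. Not all members rose alike. Postn was 6.63 in ES13 and 12.13 in ES20 and Col1a2 8.91 and 12.80, while Rgs5 was 7.75 and 7.46 and Pdgfrb 8.98 and 9.02. Pdgfrb and Cspg4 were highest in ES25 (10.05 and 7.66). The mean of 7 definitive and visceral endoderm genes was 5.94 in ES13 and 7.86 in ES19 (5.73 to 6.14 outside the run). Its members differed. Afp was 4.64 and 9.40 and Ttr 5.90 and 10.43 in these arrays, while Foxa2 was 6.68 and 6.90 and highest in ES26 (7.85). For 8 primitive and parietal endoderm genes the mean was 8.75 in ES13 and 9.43 in ES20, beside 6.68 to 7.38 in ES1 to ES12. In ES21 to ES26 it was 8.13 to 9.00, which overlaps ES13 to ES16. Members of this list also differed, with Gata4 highest in ES14 (9.28) and Dab2 in ES9 (11.54). Sox7 was highest in ES14 and Sox17 in ES17. The trophoblast mean of 6 genes was highest in ES14 (9.46), beside 5.96 to 6.67 in ES1 to ES12 and 6.95 to 7.39 in ES21 to ES26. Ascl2 of this list was 5.73 to 6.13 in the run and highest in ES24 (7.08). Prl3d1 and Gcm1 were listed but not tested. The cardiac mean of 8 genes lay between 7.24 and 7.60 in the run, 5.63 and 6.25 in ES1 to ES12, and 6.87 and 7.09 in ES21 to ES26. Its members were mixed. Tbx20 was 10.25 to 11.20 in the run and 4.53 to 5.49 in ES1 to ES12. Nkx2-5 (7.32 to 7.74 against 6.98 to 7.91) and Myh6 (5.36 to 5.97 against 5.51 to 6.18) overlapped there.

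**Figure D4:**
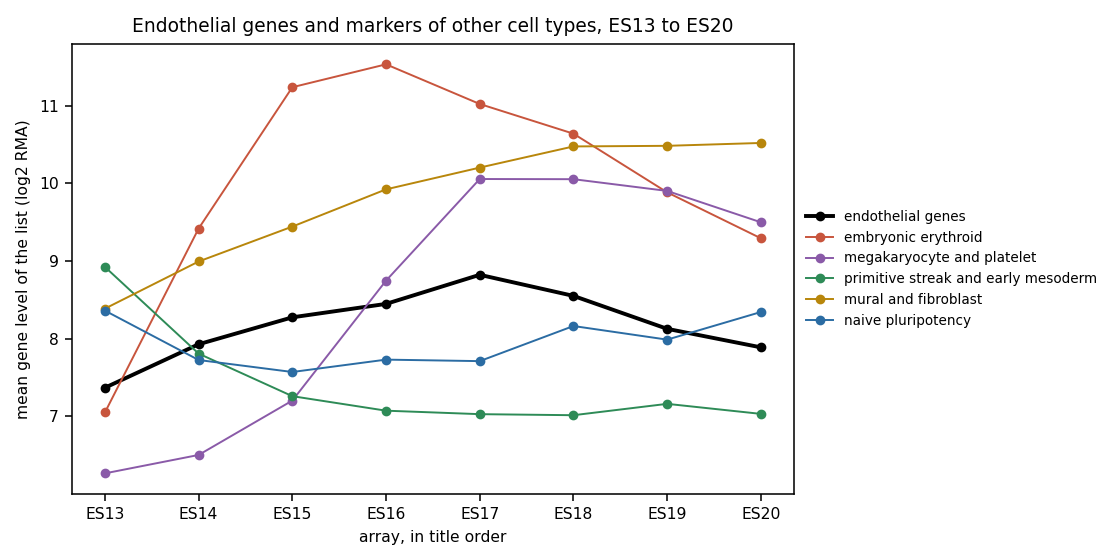
Mean gene level (log2 RMA, vertical axis) of the 10 endothelial genes and of 5 marker lists on ES13 to ES20 in title order (horizontal axis). The endothelial mean goes from 7.37 in ES13 to 8.82 in ES17 and 7.89 in ES20, the erythroid mean is highest in ES16, the megakaryocyte mean in ES17 and the primitive streak mean in ES13. Heights of different lists are not comparable, since probe sets differ in brightness.

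The members also differed in the shape of their profile. The profile of a gene over ES13 to ES26 (14 arrays) was centred on its mean, and the distance between profiles was taken as the root mean square difference in log2 units. Sox17 and Sox18 were the closest pair of members (0.31), followed by Flt1 and Sox7 (0.33). Among genes outside the 10 with a range of at least 2 over these arrays, the closest to Pecam1 was Kit, the stem cell factor receptor (0.36), followed by Smarca1 (0.49) and Ctsc (0.54). Tie1 was closest to the integrin gene Itga1 (0.19), Pheta2 (0.22) and Plvap (0.24), and Cdh5 to Asb12 (0.29), Rasgrp3 (0.36) and P2ry1 (0.41). The genes nearest to Emcn were Fermt3 (0.31), P2rx1 (0.37) and Evi2b (0.42), and the nearest to Kdr lay further off, at 0.67 (Klhl6), 0.68 (Igf2) and 0.69 (Nhsl2). For Tek they were Smtnl2 (0.43), Med12l (0.44) and Homer2 (0.49), for Flt1 Bach2 (0.29), Ttc39a (0.35) and Irs2 (0.35), and for Sox7 Prdm6 (0.31), Usp29 (0.34) and Shank3 (0.34). Sox17 and Sox18 shared Abi3 (0.27 from each) and Tbkbp1 (0.28 and 0.30), and the next were Zswim6 for Sox17 (0.29) and Atp7b for Sox18 (0.31). Sox17 and Sox18 themselves had ranges of 1.62 and 1.91, below the limit of 2, so genes of their own amplitude were not candidates. Their named neighbours had ranges of 2.02 to 2.08, just above that limit, so sharing them is no sign of a shared profile. The distance depends on amplitude as well as shape and is a description over arrays that share their runs.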

How the data were processed

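RNA from 26 mouse samples was measured on the Affymetrix Mouse Exon 1.0 ST array. Per the labels, RNA was amplified in 2 rounds, and the deposited log2 values are RMA values per probe set, made with the extended-exon setting of Expression Console (its version and the genome build are not given in the sources used here). The log base of 2 was taken from RMA convention and the range of values (0.83 to 15.6). The number of arrays limits the precision.

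Probe sets with 1 gene symbol in the platform annotation (306069 of 631748, with 6067 carrying several and 319612 none) were summarised per gene as the median of the brighter 50% of its probe sets by mean over all arrays. Symbols followed RefSeq GRCm38.p6 (17747 current, 3725 updated, 285 kept). Genes with 4 or more such probe sets, 18341 in all, were compared between strain labels with limma 3.58.1 in R 4.3.3 (eBayes with a trend, two-sided, Benjamini-Hochberg over all genes, threshold 0.05). The fit was tested on simulated data. Members, lists, runs of titles and alternatives were chosen with earlier results of these data known. Named genes of a list were its 6 of widest range over ES13 to ES26, others being marked as chosen after their values were seen. The 3 genes closest in profile to each member are named. Alternatives covered gene summary, filters, normalization, test and arrays left out. No pair of arrays held identical values. Groups share no labelled replicate numbers.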

Additional observations from a re-analysis of the deposited data

How the results depend on the processing

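Of the 10 strain label differences, those of Tek and Pecam1 kept their direction and call under every alternative run in which they were tested, except the one without ES1 to ES12 (Tek was not tested without the dimmer 50% of genes). In that setting Cdh5, Tek and Sox18 turned to 0.54, 0.34 and 0.27, with limma adjusted p from 0.892 to 0.948, and the numbers of lower and higher calls were 0 and 0 for the endothelial genes, 0 and 1 for all genes, and 0 and 0 for each of the partner, transcription factor and other endothelial lists. In limma 1814 genes had an unadjusted p below 0.05 there. The number of lower endothelial genes, 5 as reported, was 3 with arrays centred on their median, 8 with array weights, 2 by the rank sum test, 8 without ES13 and ES14, and 1 without the dimmer 50% of genes, where only Tie1 and Pecam1 of the 10 remained in the test. It lay between 2 and 7 with each array left out in turn. Without the dimmer genes, which removes genes from the test, 2077 genes in all, 8 signalling partners and 1 other endothelial gene were lower and 3 other endothelial genes higher. The number of lower transcription factors, 3 as reported, was 5 with the median or the mean over all probe sets, 6 with array weights and 5 without ES21 to ES24; the cause was not tested. Tie1 and Sox18 did not pass with the median (adjusted p = 0.0891 and 0.138) or mean (0.0978 and 0.0711) over all probe sets, nor Cdh5 and Emcn by the rank sum test (0.189 and 0.452). Sox18 did not pass without ES21 to ES24 (0.0544), and Kdr and Sox17 passed without these arrays (0.0091 and 0.0312) and without ES25 and ES26 (0.0144 and 0.0111). Sox17 passed with the median (-0.96, adjusted p = 0.00235) and the mean (-0.43, adjusted p = 0.0291) over all probe sets. The counts of genes highest in ES13 to ES20 and of genes with ES15 to ES20 above all other arrays stayed within 1.5 times under each gene summary and normalization. No paired analysis was possible because the labels give no replicate numbers.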

Other observations

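Among ES21 to ES24, the naive pluripotency arrays, ES23 and ES24 were above ES21 and ES22 in 5 of the 10 endothelial genes, Pecam1, Tek, Tie1, Kdr and Sox7, and in 18.3% of all tested genes. Tek was 7.44 and 7.59 against 6.25 and 6.37, Pecam1 9.14 and 8.67 against 7.57 and 7.99, and Kdr 6.31 and 6.40 against 5.47 and 5.28. The naive pluripotency mean was 10.55, 10.57, 10.91 and 10.51 in ES21 to ES24, and the mural and fibroblast mean 8.53, 8.47, 8.03 and 7.85. No label separates these 4 arrays, so the difference was not tested.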
